A study of Mus musculus with 9 samples.

Results

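Toll-like receptor expression was examined in BV2 cells treated with MNPs@SiO2(RITC), silica-coated nanoparticles with a cobalt ferrite core that carry rhodamine B isothiocyanate. BV2 is an immortalized murine microglial cell line. The 10 genes described here were chosen by name from the 40993 genes of the expression table. They are 8 receptors (Tlr1, Tlr2, Tlr4, Tlr6, Tlr7, Tlr8, Tlr9 and Tlr13), the co-receptor gene Cd14 and the adaptor gene Myd88. Sequencing covered 9 libraries, namely 3 from non-treated controls, 3 from cells that received 10 µg/ml particles (low dose) and 3 that received 100 µg/ml (high dose), with 12 h of treatment. The sample labels give these doses as 0.01 and 0.1 µg/µl. All 9 libraries come from 1 cell line, and the labels name no other genotype or agent. The labels number the libraries of a group 1 to 3 but do not say that they came from separate cultures. The p-values therefore measure only the spread between these libraries, which may be technical.

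Toll-like receptors recognize conserved parts of microbes and products of damaged cells, and microglia use them as the innate immune sensors of the brain. Tlr2 sits at the cell surface and pairs with Tlr1 or Tlr6 to bind bacterial lipopeptides. Tlr4 responds to lipopolysaccharide, which Cd14 hands over to it, and Cd14 also assists Tlr2. Tlr7, Tlr8, Tlr9 and Tlr13 lie in endosomes and are known as sensors of nucleic acids, RNA in the case of Tlr7, Tlr8 and Tlr13 and DNA in the case of Tlr9. All of these receptors signal through the adaptor Myd88, and Tlr4 uses a further pathway as well. Their signals reach NF-κB, whose inhibitor and subunits are among the pathway genes considered here.

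At the high dose, Tlr2 fell to 33.2 FPKM ± 2.41 (SD, n = 3) from 46.2 FPKM ± 0.591 (SD, n = 3) in control cells, a mean lower by 28.3%. FPKM divides the fragments of a gene by the length of its transcript and by the mapped fragments of the library. Tlr2 was the only one of the 10 genes to pass the threshold, an adjusted p of 0.05 over the 11161 genes tested with limma. Of all genes tested, 2.11% were called in this comparison, 1.41% lower and 0.708% higher. At 10 µg/ml none of the 10 genes was called, nor was any other gene (0%).

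In the comparison of the high dose with control, 6 of the 10 genes (Tlr2, Tlr6, Tlr8, Tlr9, Tlr13 and Cd14) had libraries that did not overlap between groups, against 23.8% of all genes tested. Of these 6, Tlr6 and Cd14 were higher at the high dose (12.5% of all genes) and the other 4 were lower (11.4%). An unadjusted p under 0.05 was reached by 6 genes, with Myd88 in place of Tlr9, against 19.4% of all genes tested. These were 2 higher (9.67% of all genes) and 4 lower (9.69%). Fitted log2 differences were negative for 7 of the 10 genes, against 50.4% of all genes, and their median was -0.14 on the log2(FPKM + 1) scale. The median of all genes tested lay within 0.01 of 0. These counts over the 10 genes are given without a test, since the genes were chosen with results of these data in view.

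In control cells, Cd14 had the highest level of the 10 genes at 74.5 FPKM ± 1.80 (SD, n = 3). Myd88 followed at 50.5 ± 4.51 FPKM and Tlr2 at 46.2 FPKM, and the libraries of these neighbours overlapped. Tlr7 (34.2 FPKM) and Tlr1 (31.4 FPKM) came next, each apart from its neighbours in all 3 libraries. Tlr13 (28.7 FPKM) and Tlr4 (27.1 FPKM) overlapped, and Tlr9 (17.3 FPKM), Tlr6 (6.34 FPKM) and Tlr8 (2.63 FPKM) closed the order with no overlap among them. At the high dose Cd14 remained first at 103 FPKM, while Myd88, Tlr7, Tlr2 and Tlr1 formed a run in which each overlapped the next, between 42.4 and 30.3 FPKM. Tlr2 came after Tlr7 there, whereas in control cells every Tlr2 library was above every Tlr7 library.

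**Figure D1:**
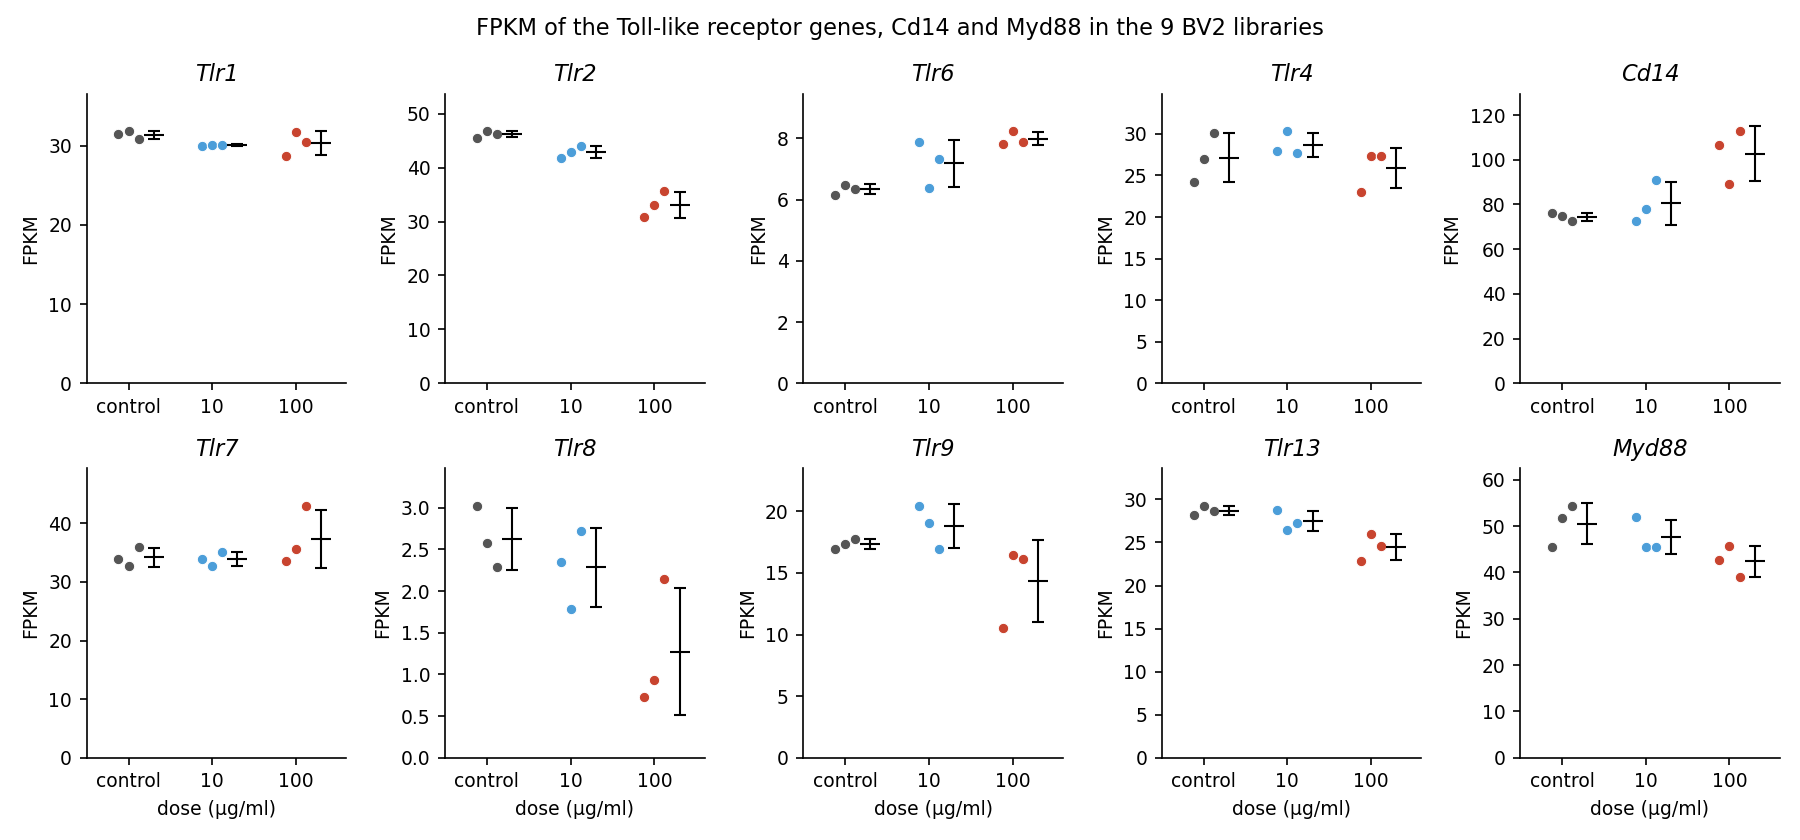
FPKM of each gene (vertical axes, from 0) in the 3 control, 3 low-dose and 3 high-dose libraries (horizontal axis, dose in µg/ml). Points are libraries, and the bar beside them is the mean ± SD. Tlr2 lay between 45.6 and 46.8 FPKM in control cells and between 30.8 and 35.6 FPKM at 100 µg/ml, and Tlr1 lay between 28.7 and 31.8 FPKM over all libraries.

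The label of the cells was compared with their markers. Of 10 markers of microglia and macrophages, 8 had a mean of at least 1 FPKM, led by Cd68 at 413 FPKM. P2ry12 and Cx3cr1, which define homeostatic microglia in the brain, were close to 0 at means of 0.093 and 0.037 FPKM. Markers of neurons, astrocytes, oligodendrocytes, endothelium and lymphocytes summed to at most 1.88 FPKM in any library, and 7 of the 13 in the table were listed at 0 throughout. Depth, estimated from the steps between low values, was about 12.2 to 15.0 M (mega) fragments per library, and replicates correlated across genes at r = 0.965 to 0.979. Library 1 of the high dose held the lowest value of its group for 8 of the 10 genes described here and the highest for 0. The same count over all genes was not made. Without this library, 539 of all genes were called at the high dose against control in place of 236.

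Tlr2 (ENSMUSG00000027995) is a protein-coding gene on the minus strand of chromosome 3, at 83836273 to 83841767 (GRCm38). Its values were 45.6, 46.8 and 46.3 FPKM in the control libraries, 41.8, 42.8 and 44.1 FPKM at the low dose and 30.8, 33.0 and 35.6 FPKM at the high dose. Every high-dose library was below every other library, and every low-dose library was below every control library. The log2 fold change at the high dose was -0.47 (SE 0.06, 95% interval -0.60 to -0.34), with an unadjusted p of 2.53e-05 and an adjusted p of 0.00962 by limma. By unadjusted p, Tlr2 stood at rank 29 of the 11161 genes tested.

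The Tlr2 difference between the doses was -0.36 (SE 0.06) on the log2 scale, with an adjusted p of 0.0326 by limma. Tlr2 was again the only one of the 10 called there, where 0.851% of all genes were called, 0.636% lower. For 10 µg/ml against control the log2 difference was -0.10 (SE 0.06), with an unadjusted p of 0.108 and an adjusted p of 1 by limma. Each pair of these 3 comparisons shares a group of libraries, so they are not independent: both comparisons with control share the controls, both with the high dose share its libraries, and both with the low dose share the low-dose libraries. Without control library 2, the adjusted p of Tlr2 at the high dose against control was 0.0561 by limma, with a log2 difference of -0.46, and with only the 6 libraries compared it was 0.0692. Between the doses, Tlr2 kept its call without high-dose library 1 and lost it without any one of the other 8 libraries, with adjusted p-values of 0.0254 to 0.130 by limma. That call was also lost with the replicate block (adjusted p = 0.0704), without the trend (0.0506) and with only the 6 libraries compared (0.151). In bulk RNA, fewer cells that make a transcript and less of it per cell cannot be told apart. The summed level of the microglial markers was 893 to 966 FPKM in control cells and 847 to 928 FPKM at the high dose. Of the 8 tested, 0 were called (2.11% of all genes), and all 8 log2 differences were below 0 (50.4% of all genes). The largest of these differences was that of Aif1, at -0.65 with an adjusted p of 0.0841 by limma. Libraries of 3 of the 8 did not overlap, all lower (11.4% of all genes). An unadjusted p under 0.05 by limma was reached by 2, both lower (9.69% of all genes). The part of the markers in the Tlr2 result was not tested.

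Tlr1 and Tlr6 encode the partners of Tlr2 and lie side by side on the minus strand of chromosome 5, at 64924811 to 64932761 and 64953106 to 64960048, 20.3 kb apart. Tlr1 measured 31.5, 31.8 and 30.9 FPKM in control cells, 29.9, 30.1 and 30.1 FPKM at the low dose and 28.7, 31.7 and 30.4 FPKM at the high dose. Its high-dose libraries overlapped with the control libraries, and the log2 difference was -0.05 (95% interval -0.16 to 0.06, adjusted p = 0.632 by limma). At the low dose all 3 Tlr1 libraries were below the controls by a small margin, with a log2 difference of -0.06 and an adjusted p of 1 by limma.

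Tlr6 measured 6.17, 6.48 and 6.36 FPKM in control cells, 7.88, 6.37 and 7.31 FPKM at the low dose and 7.83, 8.23 and 7.89 FPKM at the high dose. All 3 high-dose libraries were above all control libraries, while the low-dose libraries spanned both ranges. The log2 difference at the high dose was 0.29 (SE 0.08, unadjusted p = 0.00479), and its adjusted p of 0.0924 by limma missed the threshold. Over the 19 alternative settings this adjusted p ranged from 0.0734 to 0.245.

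The sequences of Tlr1 and Tlr6 are alike in part. Of the distinct 50-base words of Tlr6 transcripts, 12.3% also occurred in Tlr1, against 13.6% of those of Tlr1 in Tlr6, and the longest identical run was 229 bases. Fragments from this stretch could be split between both genes by the authors' correction for reads with several positions, so their separate levels are uncertain to that extent. Tlr2 shared no 50-base word with any other gene.

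Ratios within a library show how the Tlr2 partners stood to Tlr2. The Tlr6 to Tlr2 ratio was 0.135, 0.139 and 0.137 in control cells, 0.189, 0.149 and 0.166 at the low dose and 0.254, 0.249 and 0.222 at the high dose. The 3 groups did not overlap and lay in the order of the dose. The Tlr1 to Tlr2 ratio was 0.690, 0.681 and 0.667 in control cells, 0.717, 0.703 and 0.683 at the low dose and 0.933, 0.961 and 0.854 at the high dose. Here the high dose stood apart, and the low dose overlapped with control. For both ratios, the exact two-sided permutation test of the high dose against control gave p = 0.1, the smallest p that 3 against 3 libraries can give, so the design cannot reach 0.05. Since 5 ratios were computed, chosen after their values were seen, 15 such tests were made, and the smallest adjusted p was 0.15.

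**Figure D2:**
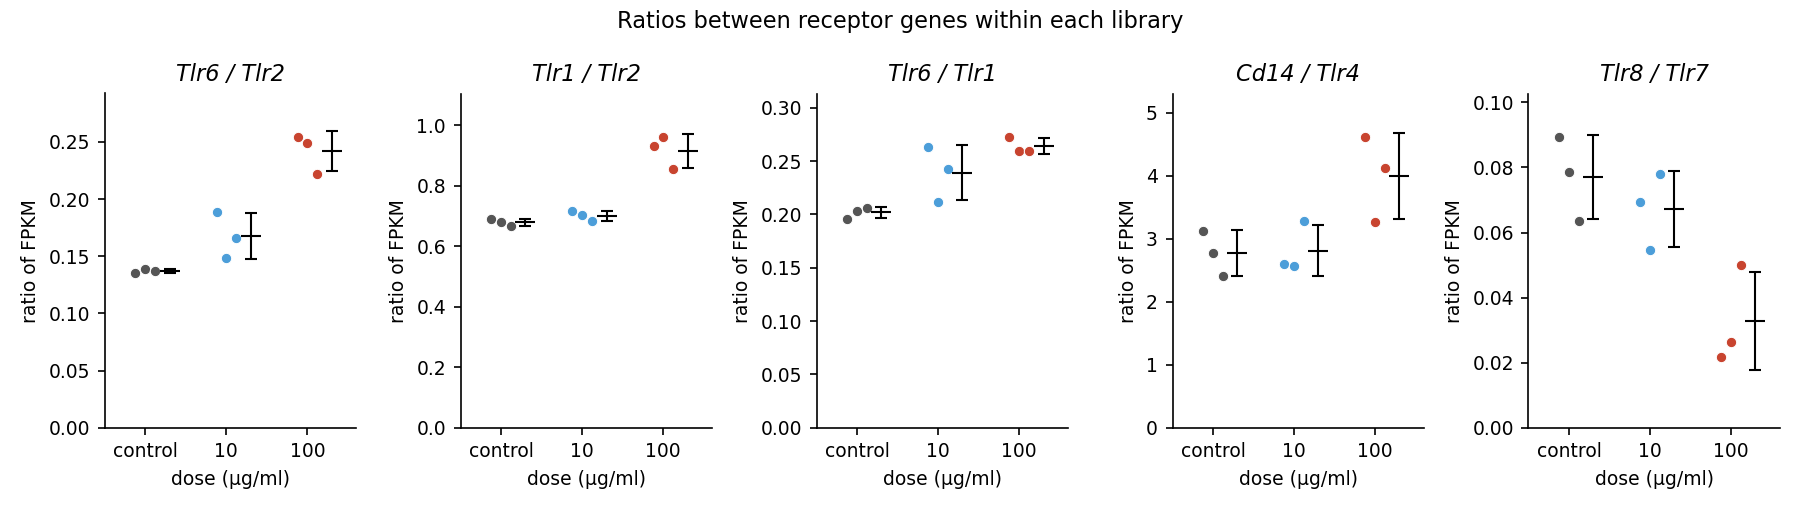
Ratios of FPKM between receptor genes within each library (vertical axes, from 0) by dose in µg/ml (horizontal axes). Points are libraries and bars the mean ± SD. The Tlr6 to Tlr2 ratio was 0.135 to 0.139 in control cells and 0.222 to 0.254 at 100 µg/ml, and the Tlr8 to Tlr7 ratio was lower at 100 µg/ml in every library.

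The sequences upstream of these 3 surface receptor genes are shown because Tlr2 was the gene called and the others encode its partners. They are the parts of the RefSeq promoter windows (GRCm38.p6) that lie upstream of every annotated start of the gene, read 5′ to 3′ on the minus strand, and capitals mark motif matches. Promoter entries were used for 7 of the 10 genes, and not for Tlr4, Tlr7 and Cd14. The Tlr2 stretch is chr3:83841768-83841858, the Tlr1 stretch chr5:64933564-64933808 and the Tlr6 stretch chr5:64960098-64960298.
Tlr2: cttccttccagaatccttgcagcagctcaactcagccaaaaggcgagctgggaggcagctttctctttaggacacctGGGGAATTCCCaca
Tlr1: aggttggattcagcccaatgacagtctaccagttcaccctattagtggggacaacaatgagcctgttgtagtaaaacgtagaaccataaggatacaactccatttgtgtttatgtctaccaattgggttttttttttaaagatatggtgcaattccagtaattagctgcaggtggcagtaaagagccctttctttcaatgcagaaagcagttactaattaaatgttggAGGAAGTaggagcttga
Tlr6: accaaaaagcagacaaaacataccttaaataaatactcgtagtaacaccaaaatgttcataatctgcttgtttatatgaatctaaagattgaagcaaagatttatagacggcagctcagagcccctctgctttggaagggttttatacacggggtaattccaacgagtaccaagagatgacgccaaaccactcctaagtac
The capitals in Tlr2 are a match to the κB motif, the binding sequence of NF-κB, 173 to 163 bases before the RefSeq start. They span overlapping matches of 10 bases, of which one reads as a match on both strands. The RefSeq start of Tlr2, 83841608, lies inside the deposited gene, which starts at 83841767 on the minus strand. The capitals are therefore closer to the deposited start than to the RefSeq start. The capitals in Tlr1 are AGGAAGT, a motif of ETS factors such as PU.1, 22 to 16 bases before the RefSeq start at 64933558. That start lies outside the deposited coordinates of Tlr1, and the window at its other RefSeq start, 64932699, held no match. Of 32841 mouse promoter windows of 250 bases, 3.9% held a κB match on either strand and 7.69% held AGGAAGT. The Tlr6 stretch held none of the 4 motifs searched, which also included that of interferon regulatory factors, GAAA and again GAAA after any 2 bases (2.98% of windows), and TGANTCA of AP-1 (6.75%). A window at a second RefSeq start of Tlr6, 64959166, held overlapping matches to the interferon regulatory factor motif and a match to AGGAAGT. Myd88 held a match to the former motif 40 to 31 bases before its RefSeq start, 119340018. Both of these starts lie inside the annotated genes, so their matches are not upstream of every annotated start. Tlr9 held TGANTCA 58 to 52 bases before its start. No match was found in the windows of Tlr8 and Tlr13. These matches describe letters and do not show binding.

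Cd14 (chromosome 18, 36725074 to 36726736, minus strand) encodes the surface co-receptor that delivers lipopolysaccharide to Tlr4. It measured 76.0, 75.0 and 72.5 FPKM in control cells, 72.5, 77.8 and 91.0 FPKM at the low dose and 106, 89.2 and 113 FPKM at the high dose. The high-dose libraries were all above the control libraries, but 1 low-dose library (91.0 FPKM) exceeded the lowest high-dose library. The log2 difference at the high dose was 0.45 (SE 0.10, 95% interval 0.22 to 0.68), with an unadjusted p of 0.00175 and an adjusted p of 0.0621 by limma, above the threshold. Without high-dose library 2, the lowest of its group, the adjusted p was 0.0428 by limma and the log2 difference 0.55. Over all alternatives the adjusted p ranged from 0.0428 to 0.187.

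Tlr4 (chromosome 4, 66827584 to 66930284, plus strand), the receptor that Cd14 serves, measured 24.3, 27.0 and 30.2 FPKM in control cells. Its values were 27.9, 30.3 and 27.7 FPKM at the low dose and 23.1, 27.3 and 27.3 FPKM at the high dose. The control libraries spanned nearly the whole range of the others. The log2 difference at the high dose was -0.06 (95% interval -0.28 to 0.15, adjusted p = 0.756 by limma), and its sign turned without control library 3 (0.012) or high-dose library 1 (0.014). The Cd14 to Tlr4 ratio was 3.13, 2.78 and 2.41 in control cells, 2.59, 2.57 and 3.28 at the low dose and 4.61, 3.27 and 4.13 at the high dose. The high-dose ratios were all above the control ratios (exact two-sided permutation test, p = 0.1, the smallest possible), and 1 low-dose ratio lay just above the lowest of them.

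Among the endosomal receptors, no gene passed the threshold in any comparison. Tlr8 (X chromosome, 167242696 to 167264329, minus strand), a sensor of RNA, had the lowest level of the 10 genes. It measured 3.02, 2.57 and 2.29 FPKM in control cells, 2.35, 1.79 and 2.73 FPKM at the low dose and 0.733, 0.937 and 2.14 FPKM at the high dose. High-dose libraries 1 and 2 were below 1 FPKM, while library 3 lay within the range of the low dose and just under the controls. The log2 difference at the high dose was -0.72 (SE 0.22), with an unadjusted p of 0.0103 and an adjusted p of 0.128 by limma, and the mean was 0.484 of the control mean. With a pseudocount of 0.1 or 0.01 in place of 1, the log2 difference was -1.12 or -1.19, with adjusted p-values of 0.126 and 0.122 by limma. Tlr8 was the only one of the 10 with both an unadjusted p under 0.05 and a change of the mean over 1.5-fold, a pair of cut-offs that 2.4% of all genes passed. Without high-dose library 3 the log2 difference was -0.98 with an adjusted p of 0.0483 by limma. At the estimated depths these values stand for about 109 to 126 fragments per control library and about 38 to 99 per high-dose library, and intervals for single values cannot be given from FPKM. The SD of Tlr8 within the high-dose group, on the log2(FPKM + 1) scale, exceeded that of 97.1% of all genes tested.

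Tlr7 (X chromosome, 167304929 to 167330558), the neighbour of Tlr8 on the same strand at a distance of 40.6 kb, also encodes an RNA sensor. It measured 33.8, 32.7 and 35.9 FPKM in control cells, 33.8, 32.7 and 35.0 FPKM at the low dose and 33.6, 35.5 and 43.0 FPKM at the high dose. Only high-dose library 3 stood above the range of the others, and the log2 difference was 0.12 (95% interval -0.08 to 0.32, adjusted p = 0.506 by limma). It was 0.016 without high-dose library 3 and 0.19 without high-dose library 1. The Tlr8 to Tlr7 ratio was 0.0893, 0.0786 and 0.0636 in control cells, 0.0694, 0.0547 and 0.0779 at the low dose and 0.0218, 0.0264 and 0.0499 at the high dose. The high-dose ratios were below all others (exact two-sided permutation test against control, p = 0.1, the smallest possible).

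Tlr13 (X chromosome, 106143204 to 106160493, plus strand), a sensor of bacterial ribosomal RNA, measured 28.1, 29.2 and 28.7 FPKM in control cells. Its values were 28.8, 26.4 and 27.3 FPKM at the low dose and 22.9, 26.0 and 24.6 FPKM at the high dose. Each high-dose library was below each of the other 6. The log2 difference at the high dose was -0.22 (SE 0.06), with an unadjusted p of 0.00499 and an adjusted p of 0.0950 by limma, and over the alternatives the adjusted p ranged from 0.0850 to 0.262.

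Tlr9 (chromosome 9, 106222598 to 106226883, plus strand), the sensor of unmethylated CpG DNA, measured 17.0, 17.3 and 17.7 FPKM in control cells. Its values were 20.4, 19.1 and 16.9 FPKM at the low dose and 10.5, 16.4 and 16.1 FPKM at the high dose. All high-dose libraries were below all others, but library 1 was far lower than libraries 2 and 3. The log2 difference at the high dose was -0.28 (SE 0.15, adjusted p = 0.347 by limma), and it was -0.09 without library 1. The adjusted p stayed between 0.234 and 0.529 over the alternatives.

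Myd88 (chromosome 9, 119335934 to 119341411, minus strand), the shared adaptor, measured 45.6, 51.7 and 54.4 FPKM in control cells. Its values were 52.0, 45.4 and 45.6 FPKM at the low dose and 42.6, 45.6 and 38.9 FPKM at the high dose. The ranges of the high dose and control met at 45.6 FPKM, and the log2 difference was -0.25 (SE 0.09, unadjusted p = 0.0212, adjusted p = 0.174 by limma). Myd88 shares 290 exonic bases with Acaa1a on the opposite strand. The paper names a stranded TruSeq kit and also a TruSeq kit that it does not call stranded. Whether strand was used in the quantification is not given in the sources used here, so reads of that overlap cannot be assigned with certainty.

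**Figure D3:**
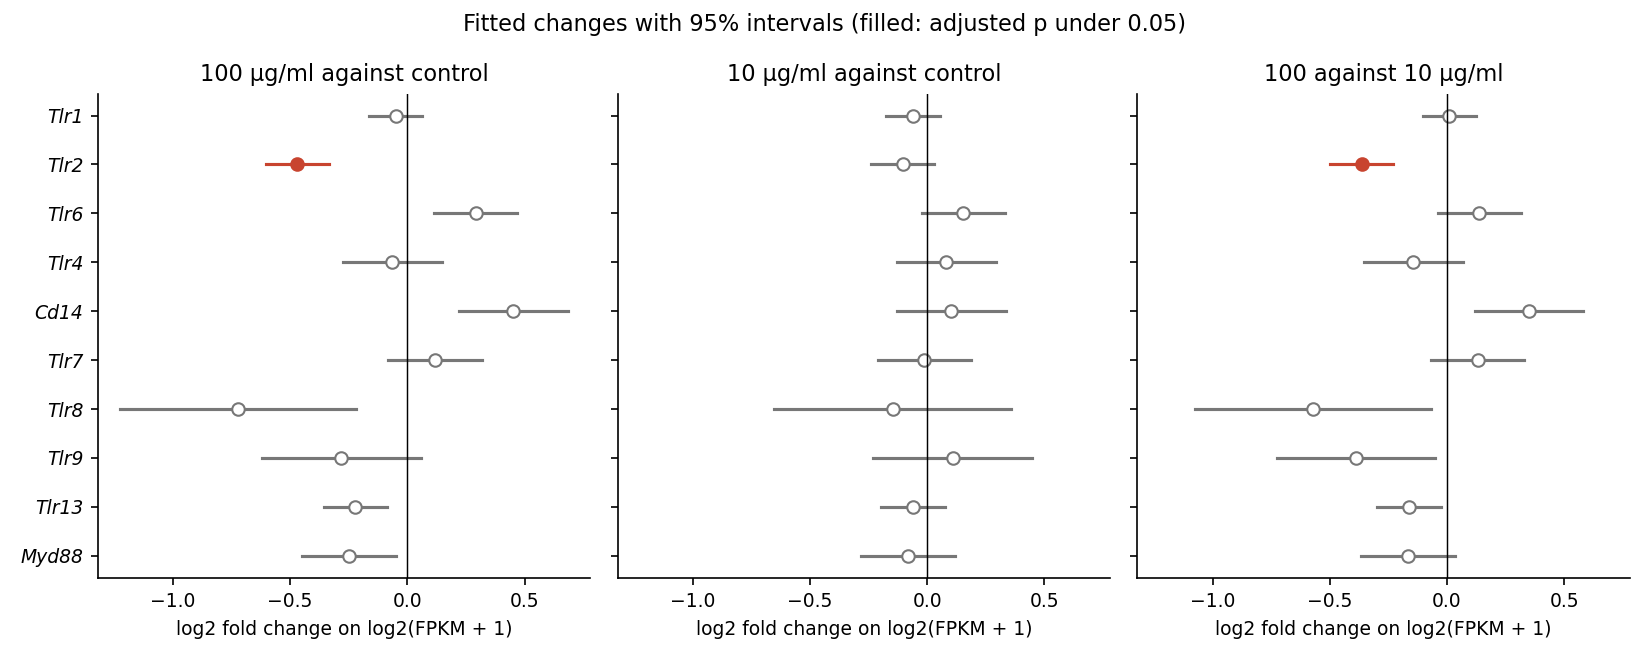
Fitted log2 fold changes (horizontal axes, log2(FPKM + 1) scale) of the 10 genes (vertical axis) in 3 comparisons, with 95% intervals from limma. Filled red points have an adjusted p under 0.05, which holds for Tlr2 at 100 µg/ml against control (-0.47) and against 10 µg/ml (-0.36), and for no gene at 10 µg/ml against control.

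At 10 µg/ml the differences from control were small. None of the 10 genes had an unadjusted p under 0.05, their median log2 difference was -0.04, and 6 of 10 were below 0 (49.8% of all genes). Tlr1 and Tlr2 had libraries that did not overlap with the controls, both lower, where 10.7% of all genes did not overlap and 4.61% were lower without overlap. By limma, 0 of the 11161 genes were called at this dose (0%), and 366 had an unadjusted p under 0.05, which is 3.28%. Of all genes, 0.672% passed an unadjusted p of 0.05 with a 1.5-fold change, and none of the 10 did. The largest fitted difference upwards was that of Tlr6, 0.15 (95% interval -0.02 to 0.33), and the largest downwards that of Tlr8, -0.15 (95% interval -0.65 to 0.36).

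Between the doses, 4 of the 10 genes (Tlr2, Tlr4, Tlr9 and Tlr13) were lower at 100 µg/ml in every library, against 19.4% of all genes with libraries that did not overlap and 9.99% that were lower. An unadjusted p under 0.05 was reached by 5 genes, against 14.3% of all genes tested, and 6 of the 10 were below 0 (49.8% of all genes). The log2 difference was -0.39 for Tlr9 (adjusted p = 0.280; -0.19 without high-dose library 1), -0.16 for Tlr13 (adjusted p = 0.269), -0.57 for Tlr8 (adjusted p = 0.286; -0.92 and -0.98 with pseudocounts of 0.1 and 0.01) and 0.35 for Cd14 (adjusted p = 0.175), all by limma. Of these, Tlr8 and Cd14 overlapped between the doses, and Tlr8 alone passed an unadjusted p of 0.05 with a 1.5-fold change, as 1.63% of all genes did.

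The other genes of the pathway were taken from lists of 76 genes by role, of which 75 were in the table and 61 had a mean of at least 1 FPKM. At the high dose 2 of the 61 were called, Lgmn lower and Rela higher, against the 2.11% of all genes given above. An unadjusted p under 0.05 was reached by 15 of them (24.6%, against 19.4% of all genes), 4 higher and 11 lower. Libraries did not overlap for 20 of the 61 (23.8% of all genes), 6 higher (12.5% of all genes) and 14 lower (11.4%). The median log2 difference was -0.03, and 35 of the 61 were below 0 (50.4% of all genes). Between the doses 1 of the 61 was called, Lgmn, against 0.851% of all genes, and at the low dose 0 were called by limma, with 0 at an unadjusted p under 0.05.

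Lgmn encodes asparagine endopeptidase, a lysosomal protease known to cut endosomal Toll-like receptors into their working form. It measured 438, 438 and 422 FPKM in control cells, 428, 422 and 416 FPKM at the low dose and 365, 346 and 330 FPKM at the high dose. All high-dose libraries were below all others, and the log2 differences were -0.32 (SE 0.05, adjusted p = 0.0191) against control and -0.28 (SE 0.05, adjusted p = 0.0475) against the low dose by limma. The call between the doses was lost when any one library other than high-dose library 1 was left out, without a filter, after quantile normalization, with the replicate block, without the trend and with only the 6 libraries compared, since 0 of the 61 genes were called in each of these fits. Of its list of 12 genes for receptor folding, traffic and processing, Lgmn was the only one called. Ctsb and Ctsl, cathepsins of the same compartment and the most abundant genes of that list, differed by 0.01 and -0.03 on the log2 scale, with overlapping libraries.

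Rela encodes the p65 subunit of NF-κB. It measured 20.9, 20.8 and 22.1 FPKM in control cells, 22.5, 22.7 and 24.1 FPKM at the low dose and 26.2, 25.7 and 25.4 FPKM at the high dose. The 3 groups did not overlap and lay in the order of the dose, and the log2 difference at the high dose was 0.27 (SE 0.05, adjusted p = 0.0370 by limma). At the low dose it was 0.11 with an adjusted p of 1 by limma. Of the 22 kinases, ubiquitin ligases and transcription factors tested, Rela was the only one called, and the median was 0.01. Nfkb1, which encodes another NF-κB subunit, had a mean of 50.4 FPKM in control cells and 45.2 FPKM at the high dose (log2 difference -0.15, adjusted p = 0.138), and Chuk, a kinase of its activating complex, had 49.9 and 55.6 FPKM (0.16, adjusted p = 0.284), both by limma. The calls of Lgmn and Rela at the high dose were both lost without any one of the control libraries or without high-dose library 3, where 0 of the 61 were called. With only the 6 libraries compared, 0 were called as well. A single gene of the 61 was called without any one of the low-dose libraries, without high-dose library 2 and after quantile normalization, and 5 were called without high-dose library 1.

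In the remaining lists no gene was called at either dose. Among 4 tested accessory proteins of ligand recognition, 3 were below 0 at the high dose. Libraries of 2 of them, Cd180 and Ly86, did not overlap with control, both lower (11.4% of all genes). Ly86 had 4.0 FPKM in control cells and 2.26 FPKM at the high dose (-0.62, unadjusted p = 0.00258, adjusted p = 0.0723 by limma). Cd180, a receptor-like relative that restrains Tlr4, had 69.7 FPKM in control cells and 58.4 FPKM at the high dose, with no overlap (log2 difference -0.25, adjusted p = 0.100 by limma). Cd36, a scavenger receptor that assists Tlr2 with Tlr6, overlapped between groups (-0.08, adjusted p = 0.524). Of 4 tested TIR adaptors, Pik3ap1 was lower in every high-dose library (82.2 and 70.0 FPKM, -0.24, adjusted p = 0.252) and Tirap, which bridges Tlr2 and Tlr4 to Myd88, overlapped (0.10, adjusted p = 0.550), by limma. Ticam2 was also lower in every high-dose library (9.39 and 7.52 FPKM, -0.29, adjusted p = 0.122 by limma). These 2 of 4 stand against the same 11.4% of all genes.

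Of 10 tested brakes on the pathway, 6 were below 0 at the high dose, against 50.4% of all genes. Libraries did not overlap for 4 of the 10, all lower, against 11.4% of all genes that were lower and 23.8% in either direction. By limma, 4 of the 10 had an unadjusted p under 0.05, 3 lower (9.69% of all genes) and 1 higher (9.67%). The higher one, Il1rl1, had 3.62 FPKM in control cells and 4.86 FPKM at the high dose, with overlap. Its log2 difference of 0.34 (unadjusted p = 0.0351, adjusted p = 0.220 by limma) was the largest of the list in either direction. Nfkbia, the inhibitor that holds NF-κB in the cytoplasm and is itself a target of it, measured 46.0, 45.5 and 44.4 FPKM in control cells and 41.3, 34.1 and 33.5 FPKM at the high dose. The log2 difference was -0.32 (SE 0.08), with an adjusted p of 0.0741 by limma. Lyn, a Src-family kinase, had 44.6 and 40.4 FPKM (-0.14, adjusted p = 0.169 by limma), again without overlap. Tnfaip3 had 25.6 and 20.3 FPKM (-0.32, adjusted p = 0.142), and Irak3 had 3.18 and 2.84 FPKM (-0.12, adjusted p = 0.522), by limma and without overlap. Between the doses Tnfaip3 differed by -0.45 (adjusted p = 0.0977) and Il1rl1 by 0.36 (adjusted p = 0.283), both by limma and without overlap. Of 15 target genes, 9 were tested and 4 of these were below 0, with a median of 0.08. Of the 9, 2 were higher at the high dose without overlap (12.5% of all genes), and 1 had an unadjusted p under 0.05 (19.4% of all genes). The genes of these counts, Cxcl10 and Nos2, are named after their values were seen, as are Ly86, Ticam2, Tnfaip3, Irak3 and Il1rl1 above. Cxcl10, a chemokine gene known to respond to interferon, measured 4.41, 5.21 and 4.21 FPKM in control cells, 3.18, 4.25 and 4.31 FPKM at the low dose and 5.88, 6.27 and 8.41 FPKM at the high dose. Its high-dose libraries were above all others, with log2 differences of 0.48 against control (unadjusted p = 0.00982, adjusted p = 0.125) and 0.67 against the low dose (adjusted p = 0.0853) by limma. Nos2, the inducible nitric oxide synthase gene, measured 2.55, 3.03 and 3.10 FPKM in control cells and 3.61, 3.25 and 4.87 FPKM at the high dose (log2 difference 0.33, adjusted p = 0.460 by limma), and 1 low-dose library reached 5.93 FPKM. The chemokine genes Ccl3 (231 and 244 FPKM) and Ccl4 (150 and 172 FPKM) overlapped between control and high dose, with adjusted p-values of 0.710 and 0.460 by limma. The 4 other Toll-like receptor genes, Tlr3, Tlr5, Tlr11 and Tlr12, were below the filter, and the highest mean among them was 0.118 FPKM, that of Tlr12. The paper lists Tlr12 as lower at both doses among its network genes. Its values over the 9 libraries lay between 0.0478 and 0.265 FPKM, and it was not tested here.

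**Figure D4:**
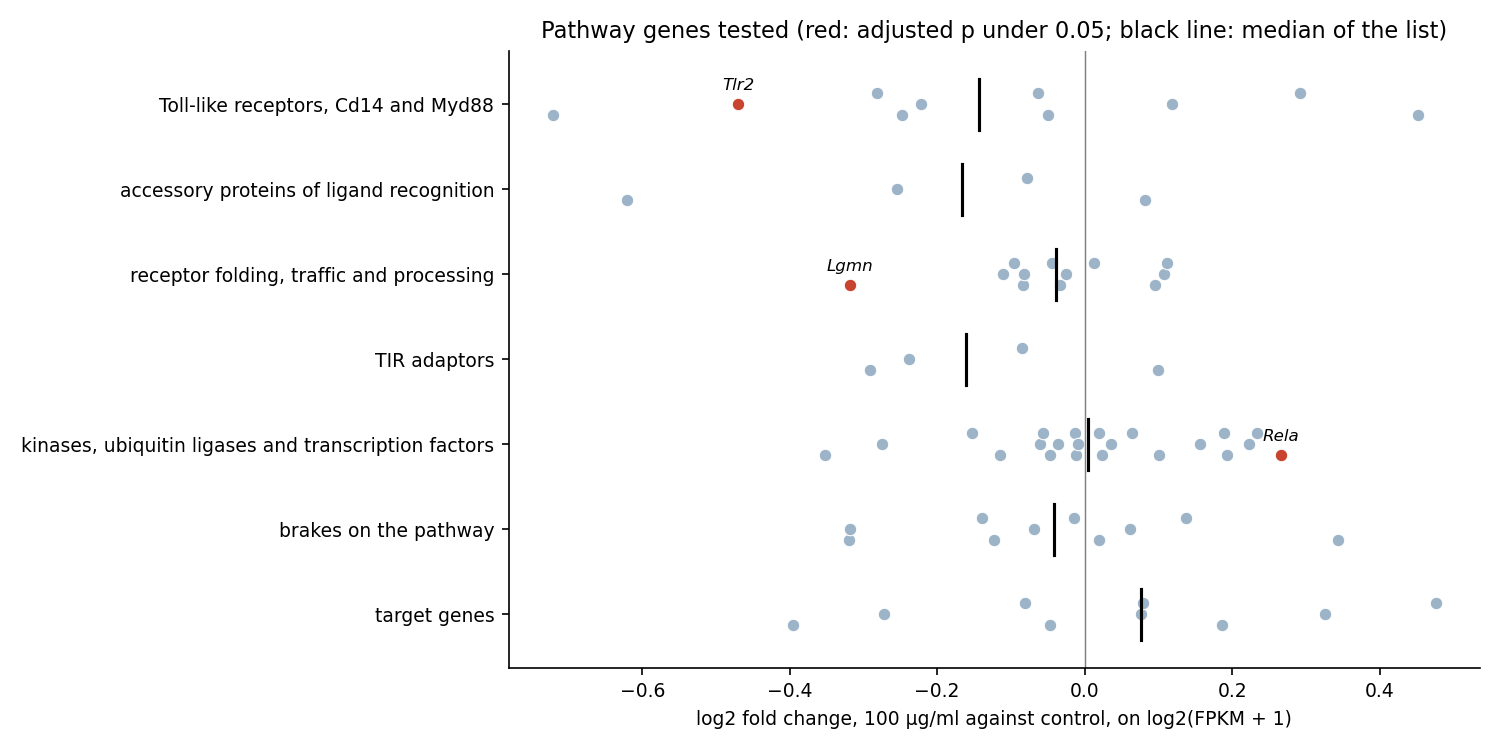
Log2 fold changes at 100 µg/ml against control (horizontal axis, log2(FPKM + 1) scale) of the 10 genes and of the 61 pathway genes tested, 1 point per gene, by list (vertical axis). Black lines are list medians, and red points have an adjusted p under 0.05, namely Tlr2 (-0.47), Lgmn (-0.32) and Rela (0.27).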

How the data were processed

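RNA of BV2 cells in 9 libraries was grouped by the treatment that the labels give. The authors used TopHat for alignment and Cufflinks 2.1.1 with Ensembl genes of GRCm38 for the FPKM values they deposited, and let Cufflinks correct for bias and for reads with several positions. FPKM holds no counts, so the depths rest on the steps by which low values of single-transcript genes rise. Of the values checked in a library, 73.5 to 82.0% were no more than 0.25 from a whole fragment (50% by chance), which makes depths and fragment numbers approximate. FPKM is a share of the library, so it also moves with the other genes, and a value of 0 can be a failed estimate.

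Values were transformed to log2(FPKM + 1), which understates the change of low genes. The 11161 genes whose mean reached 1 FPKM entered limma 3.58.1 under R 4.3.3 (3 groups in 1 fit, eBayes with trend, Benjamini-Hochberg adjustment over all of them), and adjusted p-values come from this fit unless an alternative or a left-out library is named beside them. Those of the ratios are adjusted over 15 exact permutation tests. All 10 genes passed the filter. Cuffdiff, which the authors used, starts from alignments and was not repeated. Tables were made in pandas 2.3.3 and numpy 2.4.6 under Python 3.11.15. On simulated data with 11161 genes for the high dose against control, the fit called 184 of 200 genes (92.0%) changed by 1 on the log2 scale and 115 of 200 (57.5%) changed by 0.5. False calls were 7 (3.7% of calls) and 5 (4.2%). The noise was drawn independently for each gene, with no deviation shared across a library, so recovery in the real data may be lower.

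The 10 genes, the pathway lists and the markers were chosen with earlier results of these data known. Named are all 10 genes, the pathway genes with an adjusted p under 0.05 in any comparison, the 2 genes with the highest mean FPKM of each list, and markers. Cxcl10, Nos2, Ly86, Ticam2, Tnfaip3, Irak3 and Il1rl1 were added after their values were seen. At the high dose against control, 4 of 12 genes of receptor folding, traffic and processing did not overlap, 1 higher and 3 lower. The same held for 6 of the 22 kinases, ubiquitin ligases and transcription factors tested, 3 higher and 3 lower (23.8% of all genes). Further genes of these 2 lists without overlap were not named. Genes of the lists that did not match the table, one pathway gene and one marker, were not analysed here. Coordinates are those of the deposited table, and gene structure, transcripts and overlaps come from GENCODE M21. The 19 alternatives comprised a pseudocount of 0.1 or 0.01, no filter, a filter at 5 FPKM, quantile and median-of-ratios scaling, a replicate block, eBayes without trend, only the 6 libraries compared, cut-offs of an unadjusted p of 0.05 with a 1.5-fold change, and leaving out each of the 9 libraries.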

Additional observations from a re-analysis of the deposited data

How the results depend on the processing

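Of the 10 genes, 1 was called at the high dose against control. This count was 2 after quantile normalization, 0 with only the 6 libraries compared, and 0 to 2 when 1 library was left out (0 without control library 2, 2 without high-dose library 2 or 3). Tlr2 had an adjusted p of 0.0692 with the 6 libraries and did not reach a 1.5-fold change. Cd14 had an adjusted p of 0.0497 after quantile normalization. Tlr8 passed the fold cut-offs (1.5-fold at an unadjusted p of 0.05) in both high-dose comparisons. Of the pathway genes, 2 were called in the main comparison, 1 after quantile normalization, 0 with 6 libraries, 1 by the fold cut-offs, and 0 to 5 with 1 library left out. Between the doses, the 1 call of Tlr2 became 0 with the replicate block (adjusted p = 0.0704), without the trend (0.0506) and with 6 libraries (0.151), and 0 to 1 with 1 library left out (1 without high-dose library 1), adjusted p up to 0.130. The 1 pathway call between the doses became 0 without a filter, after quantile normalization, with the replicate block, without the trend and with 6 libraries, 3 by the fold cut-offs, and 0 to 2 with 1 library left out. At the low dose every such count stayed 0. With 1 library left out, the log2 difference ran from -0.14 to 0.014 for Tlr4 at the high dose, from -0.043 to 0.023 for Tlr7 at the low dose and from -0.023 to 0.047 for Tlr1 between the doses. The sign turned for Tlr4 (0.012 without control library 3, 0.014 without high-dose library 1), for Tlr7 (0.023 without control library 3, 0.011 without low-dose library 2) and for Tlr1 (-0.023 without high-dose library 2). Of 567 values of single genes under the alternatives, 542 kept their direction and their side of the threshold. Most of them belong to genes not called in the main fit, and the fold cut-offs reuse its direction, so this share says little about the calls. The Tlr2 call was lost in 3 of 19 alternatives at the high dose against control and in 12 of 19 between the doses. Some of these fits held fewer libraries, and the cause of the changed calls was not tested. Over all genes, the 236 calls at the high dose became 22 with 6 libraries and 31 to 539 with 1 library left out, and the 95 between the doses became 6 and 8 to 191.

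The replicate numbers of the titles were tried as a replicate block. The 9 correlations between libraries of the same number ran from -0.09 to 0.15, with 1 over 0.1, so the numbers were not taken to pair the libraries. The block changed the count of all genes called from 236 to 106 at the high dose and from 95 to 13 between the doses, and changed no call of the 10 genes except that of Tlr2 between the doses. Since FPKM gives no counts, the counting error of genes at a low level, Tlr8 above all, is unknown.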
